A study of Mus musculus with 29 samples.

Results

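The Gfi1-unique sites were the places where the Gfi1 list held a peak and none of the Atoh1 and Pou4f3 lists did. They were chosen by joining windows of 300 bp, centred on each peak's summit, that shared at least 1 bp over all 9 deposited summit lists. The rule left 914 Gfi1-unique sites of 2991 Gfi1 sites, and of 78408 sites found in any list. The other 2077 Gfi1 sites had a peak of Atoh1, Pou4f3 or both in at least 1 of the other 8 lists and are called shared here: 635 with Atoh1 only, 348 with Pou4f3 only and 1094 with both. Because absence of a peak was part of the choice, the values of the Gfi1 peaks themselves are given as descriptions, and the tests of differences below are on genome sequence and annotation, which the rule did not use. The E-box and Pou4f patterns are those of the factors whose peaks the rule excluded. Their lower shares at Gfi1-unique than at shared sites therefore follow in part from the choice. Shares of repeat runs with a summit use the same lists as the rule and are descriptions.

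The data were ChIP-seq peak lists from mouse embryonic stem cell lines grown as embryoid bodies, collected on day 6, with doxycycline (2 µg/ml) for the last 48 h. All lines derived from the A2loxCre parent and carried a doxycycline-inducible cassette that ended in Venus. The Gfi1 list came from 1 ChIP library of line iGPA (Gfi1, Pou4f3 and Atoh1 on 1 cassette) with an antibody to Gfi1 itself, so a Gfi1 site has no replicate check. The other 8 lists covered Atoh1, through its FLAG tag, in the lines iGPA, iP+A, iG+A and iAtoh1, and Pou4f3, through its MYC tag, in iGPA, iG+P, iP+A and iPou4f3, where G, P and A name the factors each line carried. Those 8 lists were each called on merged libraries. The antibody and the factor cannot be told apart, since each factor was pulled down with its own antibody. The read depth behind the peaks is unknown from the lists, and all intervals below cover counting error only.

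Gfi1 is a zinc finger protein that binds DNA through a core of AATC and represses genes through its SNAG domain, which recruits the histone demethylase Lsd1 and its partner CoREST. It is known from blood, where it restrains Id genes and Hox genes, and from the inner ear, where hair cells need it to survive. Atoh1 is a basic helix-loop-helix factor that binds E-boxes, and Pou4f3 is a POU homeodomain factor that binds AT-rich sequence.

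The sequences below show the Gfi1 pattern and its relatives at these sites. The 9-letter Gfi1 pattern was AATCACTGC or AATCACAGC on either strand. The 9 promoter sites and 3 distal sites below, taken from the leading 10 and 5 by fold, had their pattern within 50 bp of the summit (a promoter site has its summit within 1 kb of an annotated transcript start; a distal site lies outside promoters and tandem repeats). Each is shown with 10 bases on either side, read on the strand of the pattern, with the pattern in capitals (build mm9, NCBIM37).
Gm10644 and Asf1b, chr8:86479159-86479187, plus strand: atcgatactcAATCACTGCgagtgcgagt
Fkbp1a, chr2:151369140-151369168, minus strand: ttggtctggaAATCACTGCcatggaggct
Shroom3, chr5:93327694-93327722, minus strand: gactcctggaAATCACTGCcttggagtcg
Bpnt1, chr1:187156437-187156465, minus strand: tggttaaataAATCACAGCagcctactga
Lgmn, chr12:103677920-103677948, minus strand: gccgcagctcAATCACAGCggggcggact
Gm15369, chr1:90042081-90042109, minus strand: accctggtgcAATCACTGCatgtgatctc
Patl1, chr19:11986439-11986467, plus strand: ggcctctatcAATCACAGCcttggcctcc
Prcc, chr3:87689672-87689700, minus strand: gaatcccaggAATCACTGCatcagaggaa
Eef1a1, chr9:78330358-78330386, plus strand: acacttgtgaAATCACTGCttctcaaaaa
distal, intron of Epha6, chr16:60538329-60538357, plus strand: gaggggaacaAATCACAGCatcaaagtca
distal, intron of Zfp420, chr7:30693756-30693784, minus strand: gaatcctaaaAATCACAGCcacgcactca
distal, intron of Bcas1, chr2:170237082-170237110, plus strand: atcacaaataAATCACAGCgttcagcaat

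Several of the strongest promoter sites, and Id3 from a list of known Gfi1 targets in blood, lacked those 9 letters. They held a close relative of that pattern within 50 bp of the summit. They are shown the same way, with the related 9 letters in capitals: AATCAGNGC, AATCTCNGC, or AATCACNGC with a letter other than T or A, where N is any base.
Itsn1, chr16:91729787-91729815, minus strand: ccctcacacaAATCAGTGCagcccgcacg
Alg14, chr3:120994996-120995024, minus strand: agaaactacaAATCTCAGCatgcagcgct
Irx3, chr8:94325340-94325368, minus strand: gagcccagggAATCTCGGCcaatctgttc
Map4k3 and Gm9959, chr17:81127926-81127954, minus strand: gacagaggtcAATCACGGCtttggttctg
Id3, chr4:135699127-135699155, plus strand: cttcttctgcAATCTCAGCgcctagccca

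The tandem-repeat sites looked different, and the commonest repeat held no AATC. The windows of 100 bases around 2 summits stand for 2 of the rarer repeat units that had peaks. These were AGCCGG, at 6 of 123 repeat sites, and AAATC, at 2. Each is named before its sequence, with AATC in capitals where it occurred.
AGCCGG unit, chr2:172461834-172461933, plus strand: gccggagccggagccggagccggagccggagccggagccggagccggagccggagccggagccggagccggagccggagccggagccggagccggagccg
AAATC unit, chr2:85260444-85260543, plus strand: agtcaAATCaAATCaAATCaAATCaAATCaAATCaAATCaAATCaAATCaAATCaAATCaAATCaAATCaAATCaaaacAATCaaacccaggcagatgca

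By place, 351 Gfi1-unique sites were promoter sites outside tandem repeats, 440 were distal and 123 had their summit in a tandem repeat. A summit was called a tandem repeat where 80% or more of the 100 bp around it matched itself at a shift of 1 to 12 bp. In the GENCODE vM1 annotation 448 of the 914 summits were intergenic, 364 lay in introns, 61 in untranslated exons, 24 in exons of non-coding transcripts and 17 in coding exons.

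Fold enrichment over input, which is a value of the list that chose the sites, was similar at promoter and distal sites and much higher at repeats. Its median was 4.40 at promoter sites (2.86 to 17.8), 4.62 at distal sites (2.81 to 25.5) and 14.7 at repeats (3.74 to 113). Over all 914 sites the median was 4.62, and over the shared sites it was 4.31 (1.83 to 219.7). All of the top 20 Gfi1-unique sites by fold were tandem repeats, and 47 of the top 50 were.

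**Figure D1:**
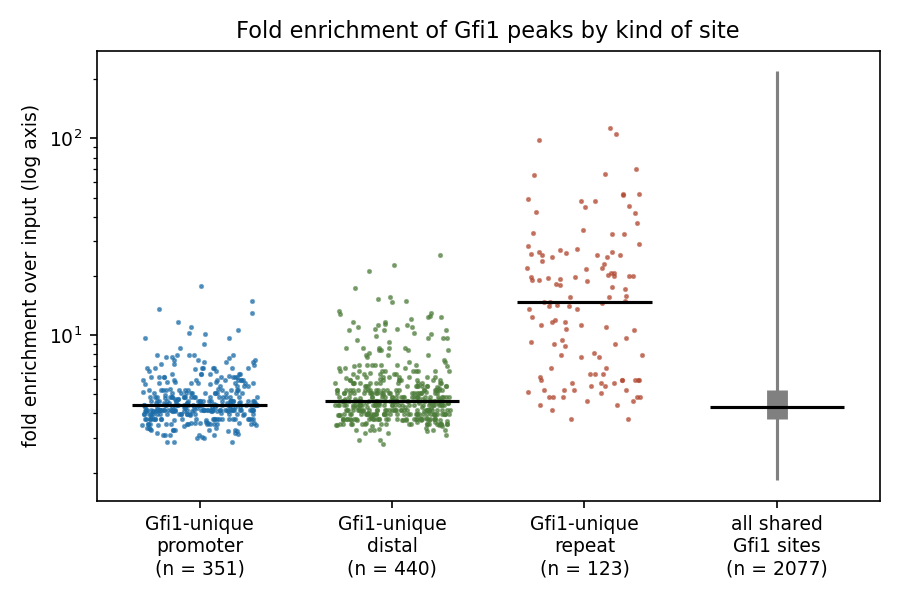
Fold enrichment over input of the Gfi1 peak (log axis) at 351 promoter, 440 distal and 123 tandem-repeat sites that were Gfi1-unique, 1 point per site with a black line at the median; for the 2077 shared Gfi1 sites the grey line spans the range and the thick part the quartiles. The repeats sit highest, with a median of 14.7 against 4.40 and 4.62.

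The Gfi1 pattern was more frequent at Gfi1-unique than at shared Gfi1 sites, and the patterns of the other factors were less frequent. The 9-letter pattern lay within the 250 bp around the summit at 106 of 914 Gfi1-unique sites (11.6%) and at 103 of 2077 shared sites (4.96%). The difference was 6.64 percentage points (95% Newcombe interval 4.47 to 9.03), and the share was higher on 18 of 20 chromosomes (1 to 19 and X). In 250 bp windows centred 1000 bp to either side of the Gfi1-unique summits the share was 0.821%, and at all 86803 annotated starts it was 0.464%.

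The 10-letter E-box pattern was at 17 Gfi1-unique sites (1.86%) and 217 shared sites (10.4%), a difference of -8.59 percentage points (-10.1 to -6.93) in the same direction on 20 of 20 chromosomes. The share at Gfi1-unique sites lay near that of their own flanks, 2.13%, and of all starts, 1.54%. The Pou4f pattern, ATAATTAAT with at most 1 mismatch, was at 49 Gfi1-unique sites (5.36%) and 293 shared sites (14.1%), a difference of -8.75 (-10.8 to -6.56). In the flanks of the Gfi1-unique sites it was more frequent, at 9.96%, and at all starts it stood at 3.63%. So neither of those patterns exceeded its flanks at the Gfi1-unique sites, whereas the Gfi1 pattern did, by 10.8 points (8.79 to 13). The Gfi1 pattern was also more frequent at shared sites than in their own flanks, at 4.96% against 0.481%. Its excess over flanks was therefore not particular to the Gfi1-unique sites. At shared sites the E-box pattern stood at 10.4% against 1.64% of flanks, and the Pou4f pattern at 14.1% against 8.86%. These differences between shared sites and their flanks were not tested.

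Against each class of shared site alone the Gfi1 pattern was also more frequent. It was at 6.61% of sites shared with Atoh1 only, 5.75% of those shared with Pou4f3 only and 3.75% of those shared with both, and all 3 differences from the Gfi1-unique share left out 0. The E-box share of sites shared with Pou4f3 only was 1.15% (difference 0.711, -1.19 to 2.01), and the Pou4f share of sites shared with Atoh1 only was 4.88% (difference 0.479, -1.87 to 2.66), so no difference from the Gfi1-unique sites was detectable for the pattern of the factor that was missing.

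The share with the Gfi1 pattern was lower at each step from 0 to 4 other lists with a peak, and did not fall steadily from 4 to 8. Outside tandem repeats the 9-letter Gfi1 pattern was at 13.4% of sites with no other list (exact 95% interval 11.1 to 16), 9.39% with 1 list (6.38 to 13.2), 6.71% with 2 (4.15 to 10.2), 5.61% with 3 (3.30 to 8.83) and 2.98% with 4 (1.68 to 4.87). It was 3.32% with 5 lists, 4.4% with 6, 2.41% with 7 and 1.92% with 8. Each interval overlapped the next, that of no list and 1 list included, and from 4 lists to 8 all overlapped. The trend was not tested. The 6-letter core AAATCA fell from 56.6% with no other list to 35% with 1 and 9.62% with 8. Sites with a peak of Atoh1 or Pou4f3 only in lines other than iGPA, 509 in all, held the Gfi1 pattern at 7.47%, repeats included. That was 4.13 points (0.889 to 7.12) under the 11.6% of all Gfi1-unique sites and did not pass at the 99.6% level (-0.829 to 8.53).

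**Figure D2:**
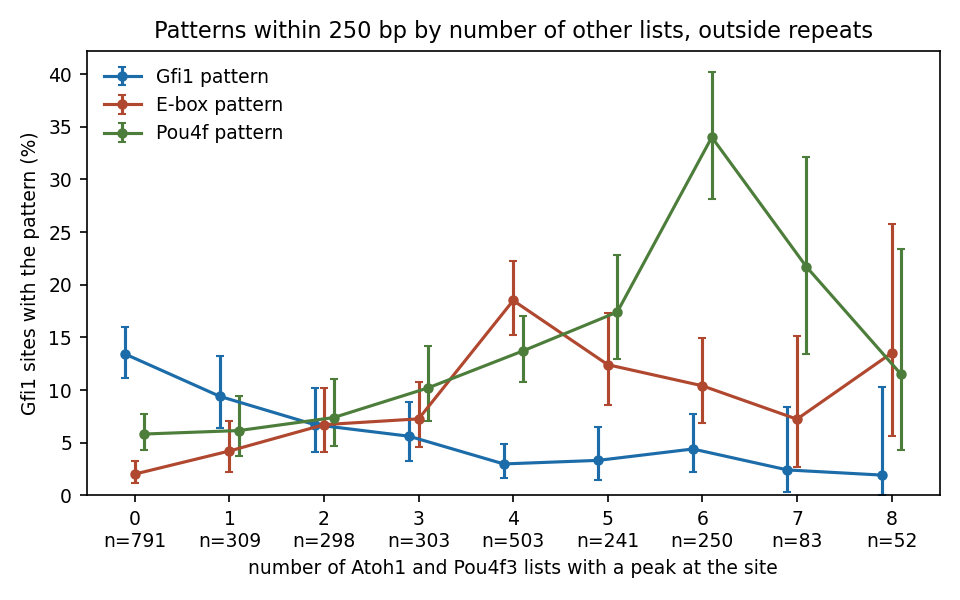
Share of Gfi1 sites outside tandem repeats that held each factor's pattern within 250 bp around the summit (y axis, percent, with exact 95% intervals), by the number of the other 8 lists with a peak at the site (x axis, n below each). The Gfi1 pattern is highest, 13.4%, where no other list had a peak, and the E-box pattern is lowest there, 2.02%.

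The AATC core itself was at most Gfi1-unique summits. Outside tandem repeats 649 of 791 sites (82.0%) held AATC within 50 bp of the summit, against 65.9% of the 2039 shared sites and 45.3% of the flanks; the difference from shared sites was 16.2 points (12.7 to 19.5). The difference varied with the base after the core. AATCA was at 58.4% of the sites against 17.4% of flanks and AATCT at 37.0% against 16.8%, while AATCC was at 20.7% against 16.8% and AATCG at 4.30% against 2.53%. Compared with shared sites, AATCA differed by 21.9 points (17.8 to 25.8) and AATCT by 8.01 (4.15 to 11.9), and no difference was detectable for AATCC (2.54, -0.654 to 5.91) or AATCG (0.326, -1.20 to 2.14).

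Counting every word of 6 letters in the same 100 bp gave AAATCA as the word furthest above its flanks, at 41.1% of the 791 sites, 7.65% of flanks and 18.7% of shared sites. It was followed by AATCAC (26.8% against 4.87% of flanks) and AATCAG (22.5% against 4.42%), and 12 of the leading 20 words held AATC. Among words of 8 letters the leading ones were AAATCAAA, AATCTCAG, AATCACAG and AATCACTG, and 16 of the leading 20 held AATC. Any of the 4 words AATCACNGC, AATCTCNGC, AATCAGNGC and AATCAAAGC, which were picked after these counts were seen, was at 233 of 791 Gfi1-unique sites (29.5%), 12.5% of shared sites and 1.20% of flanks. AATCTCNGC alone was at 66 Gfi1-unique sites (8.34%) and at 1 of 1582 flanks.

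The patterns lay close to the summits. Of the 106 Gfi1-unique sites with the 9-letter pattern, 90 had it within 50 bp of the summit (84.9%), with a median distance of 21.5 bp (quartiles 10 to 38.5). At the 103 shared sites with the pattern the median was 29 bp (14 to 54), and 70.9% had it within 50 bp. AAATCA was in the central 20 bp at 14.5% of Gfi1-unique sites and 5.05% of shared sites, while at 200 bp it was at 1.39% and 0.981% on the side of lower coordinates and at 0.506% and 1.13% on the other.

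**Figure D3:**
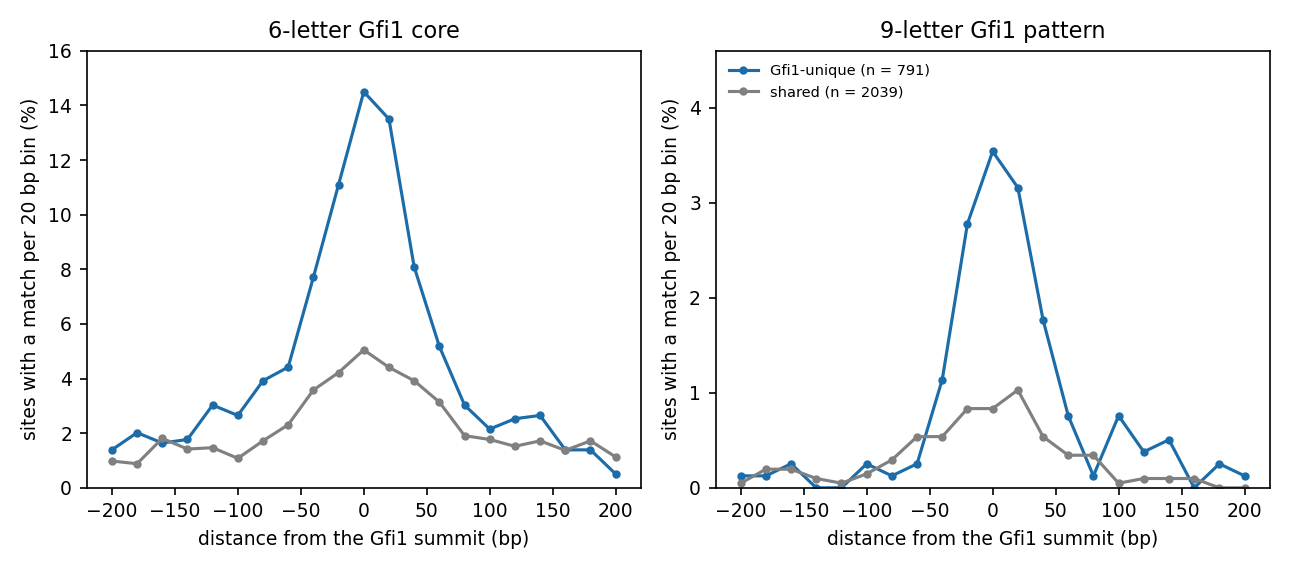
Share of sites (y axis, percent) with the 6-letter core (left) or the 9-letter Gfi1 pattern (right) in each 20 bp bin around the Gfi1 summit (x axis, bp), for 791 Gfi1-unique and 2039 shared sites outside tandem repeats. Both rise near the summit, and the central bin stands at 14.5% and 3.54% at Gfi1-unique sites and at 5.05% and 0.834% at shared sites.

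Patterns of 11 other factors were searched on both strands as well, which makes a family of 14 with the 3 above. Between Gfi1-unique and shared sites 5 of 14 differences left out 0 at 95%, and 3 did at the 99.6% level that allows for 14 comparisons: Gfi1, E-box and Pou4f. The remaining pair at 95% were NRF1 (GCGCATGCG; 3 sites against 22) and CRE (TGACGTCA; 2 sites against 19), each lower at Gfi1-unique sites by under 1 point; all starts held them at 1.31% and 1.48%. No difference was detectable for ETS (CCGGAAG; 3.39% and 4.29%), SP/KLF (GGGCGGGG; 5.25% and 7.03%) or NFY (CCAATCA; 6.78% and 7.46%), which at all starts stood at 8.00%, 14.1% and 5.18%. NFY exceeded its flanks by 3.67 points (1.95 to 5.61) at Gfi1-unique sites, but its letters hold the Gfi1 core AATCA.

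At promoters, 356 Gfi1-unique sites (38.9%, repeats included) lay within 1 kb of a start against 719 shared sites (34.6%). The difference of 4.33 points (0.596 to 8.12) did not pass at the 99.6% level and had this sign on 11 of 20 chromosomes. Outside tandem repeats the shares were 44.4% and 35.2%, and that difference of 9.21 points (5.19 to 13.2) passed at the 99.6% level (3.26 to 15.2), with this sign on 17 of 20 chromosomes. With repeats included the value moved both ways with the settings: it became 15.9 with joining windows of 100 bp, 10.0 with full peak intervals, 14.5 when absence was asked only of the other 2 iGPA lists and -12.4 with joining windows of 1000 bp. With starts within 500 bp it was -1.26 (-4.69 to 2.29), and with Gfi1 peaks limited to a -log10 p of 10 or more -0.870 (-6.07 to 4.47). By class, repeats included, the promoter share was 29.3% with Atoh1 only, 31.7% with both factors and 53.4% with Pou4f3 only. Against Pou4f3 only the Gfi1-unique difference was -14.5 points (-20.5 to -8.35). Against sites with a peak only in lines other than iGPA, at 49.1%, it was -10.2 (-15.5 to -4.79). The Gfi1-unique share was thus above that of sites with Atoh1 only or both, and below that of the other groups. Of the 351 Gfi1-unique promoter sites outside repeats, 195 (55.6%) had a summit of another list within 1000 bp, so many of them lay beside a site of Atoh1 or Pou4f3 rather than far from one; the nearest was 301 bp away.

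Within promoters the Gfi1-unique summits were spread more widely around the start. Of 351, 136 (38.7%) were within 200 bp of a start, against 401 of 717 shared promoter sites (55.9%), a difference of -17.2 points (-23.3 to -10.8). The median distance from the start was 303 bp against 166 bp. The rule left out Gfi1 summits within the joining distance of another list's summit. Whether that gave the wider spread was not tested, and the distances were not computed with other joining windows. The median signed position was 7 bp downstream, with quartiles of -247 and 327.5, and no difference was detectable in the share upstream (49.0% and 53.8%; -4.83, -11.2 to 1.54).

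**Figure D4:**
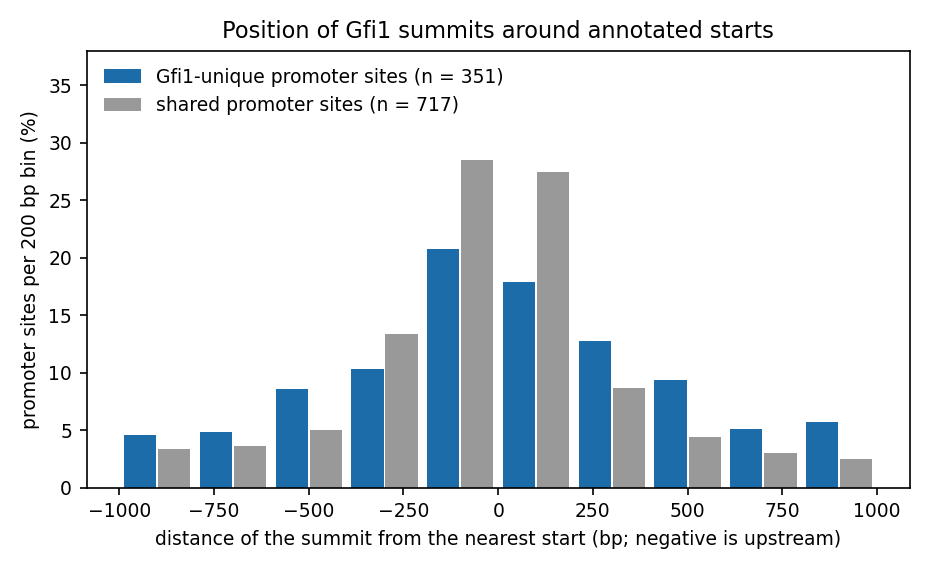
Position of the Gfi1 summit from the nearest annotated start (x axis, bp, negative is upstream, bins of 200 bp) as the percentage of 351 Gfi1-unique and 717 shared promoter sites (y axis). The shared sites are more concentrated in the central bins (28.5% and 27.5%) than the Gfi1-unique sites (20.8% and 17.9%).

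Gfi1-unique promoter sites were also less rich in CpG than shared ones, which was likewise not computed with other joining windows. Their 250 bp windows held a median of 10 CpG (quartiles 6 to 17) and 53.6% GC, against 17 CpG (9 to 25) and 60.8% GC at shared promoter sites. All annotated starts had a median of 7 CpG (3 to 20) and 55.2% GC. Distal Gfi1-unique sites had a median of 3 CpG and 46.0% GC, and repeats 1 CpG and 41.2%.

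The Gfi1 pattern was at 39 of 351 promoter sites (11.1%) and 67 of 440 distal sites (15.2%) among the Gfi1-unique sites, and the difference of -4.12 points (-8.77 to 0.696) did not leave out 0. Within promoters it was 4.14 points (0.575 to 8.20) above the shared sites, which did not pass at the 99.6% level (-1.05 to 10.4) and held on 13 of 20 chromosomes, and among distal sites 11.2 points (7.94 to 15.0) above them. The AAATCA core, at 10.0% of all starts, was 28.4 points (22.3 to 34.4) above shared sites at promoters and 27.8 (22.5 to 32.9) at distal sites.

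The nearest start was that of a protein-coding gene at 307 of the 356 sites, of a lincRNA at 19 and of a processed transcript at 13. At 70 sites starts of 2 or more genes lay within 1 kb, and 37 sites lay between a divergent pair of protein-coding starts. In all 363 of 22238 protein-coding genes (1.63%) had a Gfi1-unique site within 1 kb of a start, and 419 of 33924 annotated genes (1.24%). Shared Gfi1 sites marked 723 protein-coding genes (3.25%), and 31 genes had both kinds at their starts.

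The strongest promoter site was at Itsn1, which encodes a scaffold of endocytosis. Its fold was 17.8 with a -log10 p of 77.7, its summit lay 6 bp upstream of the start (chr16:91729660-91729959), and its window held 41 CpG at 79.6% GC. Alg14, which makes part of an enzyme of N-glycosylation, had a fold of 15.0 in its intron 255 bp downstream of the start (chr3:120994840-120995139). Asf1b, a chaperone of histones H3 and H4, shared a site with Gm10644 at a fold of 13.6 (chr8:86479000-86479299), with the 9-letter pattern 23 bp from the summit and no other factor's summit within 17214 bp.

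The next were Map3k3, a kinase of the MAP kinase cascades (13, 243 bp upstream), and Irx3, an Iroquois homeobox factor (11.7, in its untranslated exon 205 bp downstream). Fkbp1a, the prolyl isomerase that binds FK506, had a fold of 11.0 at 507 bp upstream. Map4k3, a kinase that acts upstream of JNK, had 10.6 at 471 bp upstream, where Gm9959 also starts. Shroom3, which drives apical constriction of epithelial cells, had 10.3 at 692 bp downstream, with the pattern 3 bp from the summit. Of these 8 sites 7 held at least 1 of the 4 AATC words within 50 bp. Map3k3 did not, though it held AATC 3 times. The words were picked from counts over the 791 Gfi1-unique sites outside repeats, these 8 included, so this is a description. Of the 791 sites 29.5% held at least 1 of the words, and of the 8 distal sites of highest fold 2 did. The sites at Itsn1, Map3k3 and Shroom3 had a summit of another list 448, 357 and 304 bp away, outside the joining distance. At Itsn1 and Map3k3 a peak of another list had also been called 64 and 44 bp away but was not in the summit lists. Of the other named sites, the same held at Zfp960 (30 bp), Rps29 (47 bp), Prcc (149 bp) and Zfyve1 (218 bp), and at a distal site on chromosome 18 (34 bp).

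Further promoter sites with the 9-letter pattern within 50 bp of the summit were those of Bpnt1, a nucleotide phosphatase (7.92), Lgmn, the lysosomal protease legumain (7.92), and Gm15369 (7.48). Patl1, a factor of mRNA decay, had a fold of 6.81, Prcc 5.94, the translation factor Eef1a1 5.77 and Gm17105 5.72. In all 32 promoter sites and 58 distal sites had the pattern that close.

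Among 29 known Gfi1 targets in blood 2 had a Gfi1-unique site at a start (6.9%, against 1.63% of all protein-coding genes). Shared sites were at 4 of them (13.8%, against 3.25%). Both counts rest on few genes and the differences were not tested. Id3, an inhibitor of basic helix-loop-helix factors such as the partners of Atoh1, had a Gfi1-unique summit 236 bp upstream of its start (chr4:135699026-135699325; fold 7.92, -log10 p 23.3) and also a shared site, with the nearest summit of another list 592 bp away. Hoxa10, a homeobox gene of the posterior body and of blood, had a fold of 4.18 in its untranslated exon 495 bp downstream (chr6:52190149-52190448). The summit there lay 2 bp from the 9-letter pattern, shown here with 10 bases on each side beside those of Otx2 and Hist1h1a, the other genes of the lists with the pattern within 50 bp of a named summit.
Hoxa10, chr6:52190283-52190311, plus strand: tcatttcagaAATCACTGCcaaggggcag
Otx2, chr14:49283888-49283916, minus strand: atctggaagaAATCACAGCtgttgagttt
Hist1h1a, chr13:23855473-23855501, plus strand: agcattcaccAATCACAGCacagcactgc

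Of 29 hair cell genes 1 had such a site: Insm1, a zinc finger factor with a SNAG domain (3.74, 982 bp upstream, near the limit of 1 kb). Of 26 neuronal genes 2 did: Otx2, a homeobox factor of the forebrain (5.72, 987 bp downstream in its intron), and Ebf1, a factor of B cells and neurons (3.96, 113 bp downstream). Of 19 pluripotency genes 1 did: Klf4 (3.52, 748 bp upstream). None of 20 Notch pathway genes and none of 31 cell cycle genes did, while shared sites were at 2 and 3 of them. These counts of 0 to 3 rest on too few genes to be set apart from the shares over all protein-coding genes. Those shares were 1.63% for Gfi1-unique and 3.25% for shared sites.

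Among larger families, 6 of 67 histone genes (8.96%, against 1.63% of all protein-coding genes) had a Gfi1-unique site within 1 kb of a start, but these came from 4 sites among closely spaced genes on chromosome 13. The sites were at Hist1h2ak and Hist1h2bn (fold 4.18), Hist1h1a (4.13), Hist1h3a (3.58) and Hist1h3h and Hist1h2ai (3.30). Shared sites marked 5 other histone genes. Histone genes share near-identical sequence, and how reads were divided between copies was not tested. Of 76 ribosomal protein genes 2 (2.63%, near the 1.63% of all protein-coding genes) had a Gfi1-unique site, Rps29 (4.62) and Rps26 (4.18). Of 364 Zfp zinc finger genes 8 did (2.20%, near the same 1.63%), and 27 had shared sites (7.42%, against 3.25% of all protein-coding genes). The 8 were led by Zfp960 (5.74), Zfp658 (5.06), Zfp953 (4.40), Zfp473 (4.40) and Zfp444 (3.74). Of 39 Hox genes only Hoxa10 did (2.56%, near the same 1.63%), which is also counted among the known Gfi1 targets in blood.

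The distal sites of highest fold often held repeated sequence that the 12 bp limit did not catch. The strongest, at chr4:92632424-92632723 (fold 25.5, intergenic) and chrX:116442063-116442362 (22.7, intergenic), held AATC 12 and 16 times in 300 bp. The site at chr8:129439599-129439898 (21.1) matched itself at a shift of 18 bp over 72.7% of the window, and that at chr11:58204751-58205050 (17.4) at 16 bp over 84.5%. These last sites and the intron of Homer1, a scaffold of synapses (chr13:94135486-94135785, 15.6), were the 3 of 8 with no AATC within 50 bp of the summit. The others of the 8 with sequence shown were near Apitd1 (15.2) and in an intron of Klhdc4 (15.0). The windows near Apitd1 and in Klhdc4 are printed because the core recurs in them, AATC (GATT on the other strand) in capitals.
near Apitd1, chr4:148513728-148513877, plus strand: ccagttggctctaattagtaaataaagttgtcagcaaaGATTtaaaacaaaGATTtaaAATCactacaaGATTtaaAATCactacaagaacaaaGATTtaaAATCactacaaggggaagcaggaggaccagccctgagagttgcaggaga
intron of Klhdc4, chr8:124348816-124348965, plus strand: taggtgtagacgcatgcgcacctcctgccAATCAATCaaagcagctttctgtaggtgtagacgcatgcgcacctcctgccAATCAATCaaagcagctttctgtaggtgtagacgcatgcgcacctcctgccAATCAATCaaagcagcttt

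The Klhdc4 window repeated a unit of 51 bp at a match of 99.6%, and each copy held AATC followed by AATCAAAGC. The site near Apitd1 held AATC 7 times within 50 bp of the summit. The last of the 8, on chromosome 18 (fold 14.7), held the 9-letter pattern 5 times in 250 bp.

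Tandem repeats were at 123 of 914 Gfi1-unique sites (13.5%) and 38 of 2077 shared sites (1.83%), a difference of 11.6 points (9.46 to 14.0) with the same sign on 20 of 20 chromosomes. Sites shared with Atoh1 only had 1 repeat among 635 (0.157%), those shared with Pou4f3 only 15 among 348 (4.31%) and those with both 22 among 1094 (2.01%). The units were few: 98 of the 123 sites (79.7%) had the unit AAAGC, 6 had AGCCGG, 6 had AGCTCC, 2 had AAAACC and 2 had AAATC. Shared sites had the unit AAAGC at 10 repeats, and the highest fold at a shared repeat, 219.7, was above that of any Gfi1-unique repeat.

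Single repeat sites had the highest folds of all Gfi1-unique sites. An AGCCGG repeat 84268 bp downstream of the Tcfap2c start stood at 113 (chr2:172461734-172462033) and another near Tmem30c at 70.2 (chr16:57264638-57264937). An AAAGC repeat in an intron of Rxfp1, the receptor of relaxin, stood at 98.1 (chr3:79516521-79516820). Over all sites of a unit the median fold was 15.7 for AAAGC (3.74 to 104.9), 58.7 for AGCCGG (48.2 to 113) and 7.81 for AGCTCC (4.87 to 20.2). It was lower for AAAACC (5.06, 4.84 to 5.28) and AAATC (4.51, 4.40 to 4.62). Only 5 of the 123 repeats lay within 1 kb of a start.

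The genome holds far more repeats than these. After these units had been seen, all perfect runs of at least 50 bp with units of 5 or 6 bp were found on chromosomes 1 to 19 and X. Of 255 runs of AAAGC, 121 (47.5%, exact 95% interval 41.2 to 53.8) had a Gfi1 summit within 150 bp, 111 of them Gfi1-unique. The share was 7 of 8 for AGCCGG, 10 of 23 for AGCTCC (43.5%) and 11 of 32 for AAATC (34.4%). Those 4 units were picked because Gfi1 peaks lay on them, so the 32 of 30616 runs of all other units with a Gfi1 summit (0.105%) follow in part from that choice. AAACC runs, which differ from AAAGC by a single letter of the unit, had 7 in 840 (0.833%), and AAAACC runs 2 in 159 (1.26%).

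Summits of Atoh1 and Pou4f3 were also more frequent at AAAGC runs than at other runs, at a lower share than those of Gfi1. At the AAAGC runs 11 of 255 (4.31%, 2.17 to 7.59) had a summit of any of the other 8 lists within 150 bp. At runs of all units but AAAGC the share was 1.38% (1.25 to 1.52). The unit AAAGC was picked because Gfi1 peaks lay on it, so these shares are descriptions and their difference was not tested. The share was 2 of 32 for AAATC (6.25%), 1 of 8 for AGCCGG and 0 of 23 for AGCTCC. Those 8 lists hold many more peaks than the Gfi1 list. Whether the Gfi1 protein or another property of this library or antibody gave the repeat peaks was not tested.

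Longer runs of AAAGC more often had a Gfi1 summit. The share was 16.1% of 62 runs of 50 to 59 bp (8.02 to 27.7), 38.6% of 44 runs of 70 to 79 bp (24.4 to 54.5), 77.8% of 27 runs of 90 to 99 bp (57.7 to 91.4) and 97.6% of 41 runs of 100 bp or more (87.1 to 99.9). Runs with a summit had a median length of 90 bp (50 to 170) and runs without one 60 bp (50 to 100).

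**Figure D5:**
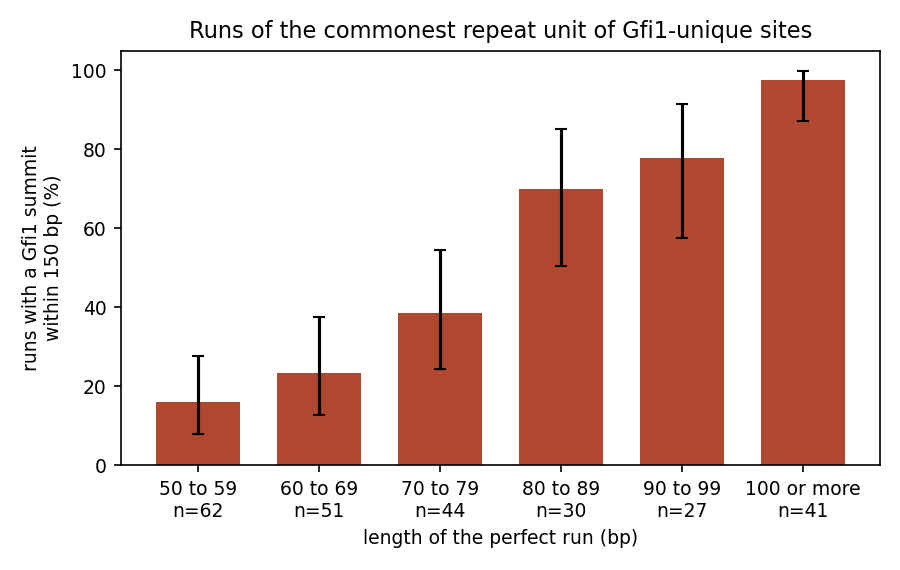
Share of perfect runs of the AAAGC unit on chromosomes 1 to 19 and X with a Gfi1 summit within 150 bp (y axis, percent, exact 95% intervals) by length of the run (x axis, bp, n below each bar). The share goes from 16.1% of runs of 50 to 59 bp to 97.6% of those of 100 bp or more.

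The choice of members had a sharp edge. The nearest kept summit of another list lay 301 to 369023 bp from a Gfi1-unique summit, with a median of 3710 bp, and 297 of the 914 had one within 1000 bp. Just inside the limit, a site at Zfyve1 (fold 3.96, chr12:84937500-84937799) was 301 bp from another summit. Just outside it, a shared site at Galnt10 (5.28, chr11:57458627-57458926) lay 299 bp from the nearest. In all 11 Gfi1-unique sites had another summit under 310 bp away.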

How the data were processed

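The authors trimmed reads with Trimmomatic, aligned them to mm9 with Bowtie2, removed duplicates with Picard, kept a mapping quality of at least 40, removed blacklisted regions and called peaks with MACS2 against merged input at a p of 0.05; tool versions are not given in the sources used here. The deposited peak lists give per peak a fold enrichment over input (a ratio), −log10 p and −log10 q values (q not used here) and, in the summit lists, a deposited score that was not used. Read counts and depth are not in the lists.

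Here the kept summits were those in the deposited summit lists. Windows were joined, and sequence and starts were read from NCBIM37 (mm9) and GENCODE vM1. Shares have exact Clopper-Pearson 95% intervals. Differences of shares have Newcombe's 95% interval and count as passed where it leaves out 0; sites are not replicates. Flanks were 250 bp windows centred 1000 bp either side of the summit. Named sites were the 8 promoter, 8 distal and 4 repeat sites of highest fold, those with the pattern within 50 bp of the summit (10 promoter, 5 distal), every listed gene with a site (up to 5 per family, by fold) and the site on either side of the joining limit. On chromosome 18 no sequence is shown, and 1 listed gene and 1 repeat site are not reported here. Members and lists were chosen with earlier results of these data known. Functions were tested on simulated data. Python 3.11.15, SciPy 1.17.1 and pysam 0.24.0 were used.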

Additional observations from a re-analysis of the deposited data

Results flagged for a closer look

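At 84 of the 914 Gfi1-unique sites (9.19%, exact 95% interval 7.40 to 11.3) a peak of Atoh1 or Pou4f3 had been called under 300 bp away, summit to summit, but was missing from the summit lists that defined the sites. This stood out because those called peaks lie outside the lists used in the comparisons. They were at 51 of 351 promoter sites (14.5%), 31 of 440 distal sites (7.05%) and 2 of 123 repeats (1.63%). By list they ranged from 6 sites (Atoh1 in iGPA) to 27 (Pou4f3 in iPou4f3).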

How the results depend on the processing

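No paired analysis was possible because each list was called on merged libraries, and the Gfi1 list on 1 library; for the same reason leaving out a replicate could not be run. Of 77 alternative values 68 kept the direction and side of the limit, or for counts stayed within 1.5 times. The differences in Gfi1 pattern (4.91 to 22.5 points over 14 alternatives), E-box pattern (-18.1 to -7.58 over 11), Pou4f pattern (-14.0 to -1.14 over 11) and tandem repeats (7.50 to 21.9 over 11) did so under each alternative run. The promoter difference ranged from -12.4 to 15.9 over 13 alternatives, of which 7 kept its direction and call (among them 9.21 outside repeats, 10.0 with full intervals, 14.5 with the iGPA lists only and 15.9 with 100 bp windows). It reversed to -12.4 points with 1000 bp windows, -1.26 with starts within 500 bp and -0.870 with Gfi1 peaks limited to a -log10 p of 10 or more (the last pair with intervals that include 0), and it no longer left out 0 with all called peaks of the other lists (1.11), on autosomes (3.75) or with protein-coding starts (3.61). The promoter against distal difference in the Gfi1 pattern passed with 500 bp around the summit (-5.19). The number of Gfi1-unique sites became 1484 when absence was asked only of the other 2 iGPA lists, and 464 with the -log10 p limit, since fewer Gfi1 peaks remained. Repeat units of up to 100 bp and a comparison with sites in 4 or more other lists were added after seeing the data. Without depth or a second Gfi1 library, no site can be checked for repeatability.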

Other observations

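Outside tandem repeats 9 of the Gfi1-unique windows shared at least 50% of their 16-base words with the window of another, so few of the sites were copies of each other. Only 6 neighbouring pairs of Gfi1-unique summits lay within 5 kb, 4 of them within 1 kb. Arpp19, an inhibitor of the phosphatase PP2A in mitosis, and Zfyve16, an endosomal protein, each had 2 Gfi1-unique sites at their starts, as did the neighbours Ccdc115 and Imp4.

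Against their own flanks, the CTCF pattern (AGGGGGCAG or AGGTGGCAG; 1.68% of all starts) was at 2.52% of Gfi1-unique sites and 0.930% of flanks (difference 1.59 points, 0.585 to 2.87), and the GATA pattern (AGATAA; 7.96% of all starts) was lower, at 10.3% and 14.4% (-4.16, -6.63 to -1.52). Shared sites held CTCF at 2.12% and their flanks at 0.987%, and GATA at 11.8% and 13%. No difference between Gfi1-unique and shared sites was detectable for CTCF (0.398, -0.699 to 1.74) or GATA (-1.51, -3.83 to 1). At promoter sites SP/KLF (GGGCGGGG) was at 11.4% and 5.98% of flanks (5.41, 1.88 to 9.46). That share was not above the 15.9% of shared promoter sites or the 14.1% of all starts. The AP-1 pattern (TGANTCA; 5.42% of all starts) was at 7.98% of Gfi1-unique promoter sites and 4.46% of shared ones (3.51, 0.532 to 7.06), which did not pass at the 99.6% level.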
